A study of Arabidopsis thaliana with 6 samples.

Results

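Pericentromeric regions of Arabidopsis thaliana in which both CND1-FLAG ChIP libraries had a peak are described here. Overlapping peaks of the 4 peak lists (by 1 bp or more) were joined into 17347 regions, of which 8049 on the nuclear chromosomes held a peak of both CND1-FLAG lists. Of these, 862 lay fully inside 5 windows around the centromeres (TAIR10 chromosome 1 from 13000 to 17000 kb, chromosome 2 from 2000 to 6000 kb without the stretch from 3200 to 3550 kb, chromosome 3 from 12000 to 16000 kb, chromosome 4 from 2500 to 5500 kb and chromosome 5 from 10500 to 14000 kb). They fell into 417 regions without and 445 regions with a peak in at least 1 Col-0 list, so 48.4% had no Col-0 peak, beside 49.8% of the 8049 nuclear regions. The regions were chosen by the peak calls themselves, which also fixed these classes, so counts, folds and −log10 q values are given as a description and not as a test.

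Seedlings of 2 genotypes were fixed in 1% formaldehyde (10 minutes), the chromatin was sonicated, and anti-FLAG precipitates were sequenced as paired ends. The CND1-FLAG plants carry pCND1-Flag in the cnd1-3 background, and the Col-0 plants carry no tag, so a peak called in Col-0 does not depend on the tag. For both genotypes there are 2 ChIP libraries and 1 input library, and peak lists of the 4 ChIP libraries were used. The labels do not say what cnd1-3 alters, how many transgenic lines were used, the age of the seedlings, or whether replicate libraries stem from different plants, so the spread between libraries may be technical.

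Pericentromeres flank the satellite arrays of the centromeres. In Arabidopsis they are rich in transposons and other repeats, carry dense DNA methylation and the histone marks of heterochromatin, and hold few active genes. Because repeats occur in many copies, reads from them can be hard to place, and copies that the reference assembly lacks pile up on those it holds.

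Library totals were not used, but the fold and p of each summit allowed the fragments behind it to be worked out. The lowest background of a list corresponded to 84.6 and 76.0 fragments per kb in CND1-FLAG replicates 1 and 2, against 158 and 155 in Col-0 replicates 1 and 2. These values take the smallest peak width of each list, 326 to 357 bp, as the fragment length, which was not checked. Whether a fragment here is a read pair or a single read was not determined. The lists held 12933 and 10414 nuclear peaks in CND1-FLAG, against 6152 and 5722 in Col-0. The Col-0 lists were thus the shorter ones although their lowest background had more fragments per kb. The part of list length and depth in whether a region lacked a Col-0 peak was not tested.

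CND1-FLAG lists held more peaks inside the windows, but not a larger share of their peaks. There were 1874 and 1264 window peaks in CND1-FLAG replicates 1 and 2, against 843 and 730 in Col-0 replicates 1 and 2. The means were 1569 ± 431 for CND1-FLAG and 786.5 ± 79.9 for Col-0 (SD, n = 2 each), which is 1.99 times as many. Both CND1-FLAG values lay above both Col-0 values in the sum and in each of the 5 windows. In the exact two-sided permutation test the sum gave p = 0.33, the smallest value that 2 against 2 libraries allow. As a share of each list's nuclear peaks the windows took 14.5% and 12.1% in CND1-FLAG, against 13.7% and 12.8% in Col-0. These shares overlapped, with means 0.0835 percentage points apart (exact two-sided permutation p = 1). When every list was shortened to the number of peaks in the shortest list by −log10 q, the difference in window peaks turned round to −406.5, with fewer in CND1-FLAG.

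Window peaks also had higher folds in CND1-FLAG, though the lists differed in depth and fold is not a measure of occupancy. The median fold enrichment of window peaks, the pile-up of fragments over the local background at the summit, was 1.84 and 1.84 in CND1-FLAG, against 1.66 and 1.67 in Col-0. Outside the windows it was 1.94 and 1.92 in CND1-FLAG, against 1.66 and 1.66 in Col-0. A fold of at least 2 was reached by 26.5% and 27.0% of window peaks in CND1-FLAG, against 8.54% and 8.77% in Col-0. Outside the windows the same share was 44.0% and 41.1% in CND1-FLAG, against 12.8% and 13.2% in Col-0. The groups did not overlap in any of these values, and 2 libraries each cannot give an exact p below 0.33. The share reaching 2 was lower inside than outside the windows in all 4 lists, and the median fold was lower inside in the CND1-FLAG lists but not in Col-0.

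The 862 regions were spread over the 5 windows, and some bins near the middle held few, on chromosome 1 and on others. Chromosome 3 held 231 (57.8 per Mb) and chromosome 5 held 194 (55.4 per Mb). Chromosome 2 held 170 (46.6 per Mb) and chromosome 1 held 180 (45.0 per Mb), while chromosome 4 held 87 (29.0 per Mb). The share without a Col-0 peak ran from 41.7% on chromosome 1 to 51.5% on chromosome 3, with 50.6% on chromosome 4, 97 of 194 on chromosome 5 and 48.2% on chromosome 2. On chromosome 1 the 0.5 Mb bin from 14.5 Mb held 1 region and the next bin held 7, whereas the bin from 16.5 Mb held 42, of which 13 were without and 29 with a Col-0 peak. On chromosome 4 the bins from 3 Mb and 4 Mb held 7 and 6, and the bin between them held 17. The chromosome 2 bin from 3 Mb, which the left-out stretch cuts, held 2. The middle bin of the chromosome 5 window, by contrast, held 32. On chromosome 3 the bin from 14 Mb held 19 regions without and 5 with a Col-0 peak. The middle 50% of each window's length held 316 regions, of which 52.5% had no Col-0 peak, and the outer parts held 546, of which 46.0% had none.

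**Figure D1:**
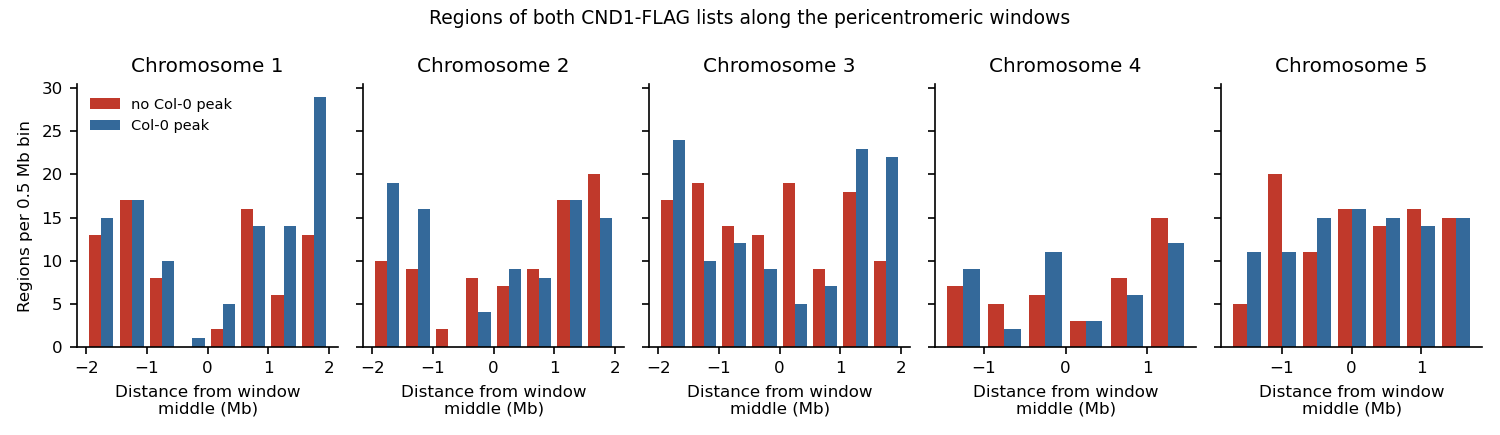
Number of regions per 0.5 Mb bin (vertical axis) against the distance of the bin from the middle of its window in Mb (horizontal axis), 1 panel per chromosome, with regions without a Col-0 peak in red and with a Col-0 peak in blue. Bins near the middle of the chromosome 1 window hold 1 and 7 regions, and its last bin holds 42. A bin near the middle of the chromosome 4 window holds 6.

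Most of the regions lay away from annotated genes, in both classes. All assigned genes were protein-coding or RNA genes, and overlap with transposons was not analysed. Distal intergenic sequence, farther than 3 kb from any gene start and outside gene bodies, was assigned to 244 regions (58.5%) without and 251 (56.4%) with a Col-0 peak. Outside the windows it was assigned to 1.67% of regions without and 3.15% with a Col-0 peak. A gene start within 1 kb was assigned to 92 regions (22.1%) without and 110 (24.7%) with a Col-0 peak inside the windows, beside 77.1% and 73.5% of those classes outside. The median distance to the assigned start was 5483 bp without and 4946 bp with a Col-0 peak, beside 267 and 340 bp for the same classes outside. A start was overlapped by 23 regions (5.52%) without and 30 (6.74%) with a Col-0 peak, beside 611 of 3594 and 478 of 3593 in the same classes outside. Thus the classes resembled each other in position, and both differed from the regions outside the windows in the same direction.

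The order of the classes in these shares did not hold under stricter calls. With −log10 q of at least 5 in every list, 193 regions remained in the windows, and distal intergenic shares were 31.4% without and 40.0% with a Col-0 peak. The same setting gave shares within 1 kb of a start of 44.1% without and 37.3% with a Col-0 peak, and 61.1% of regions without a Col-0 peak. Lists of equal length left 160 regions, of which 36.9% had no Col-0 peak. The stricter settings kept a larger share of promoters than the lists as deposited. Leaving out CND1-FLAG replicate 2, so that replicate 1 alone decided, gave 1851 regions, 1169 of them without a Col-0 peak, and leaving out replicate 1 gave 734 without one.

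**Figure D2:**
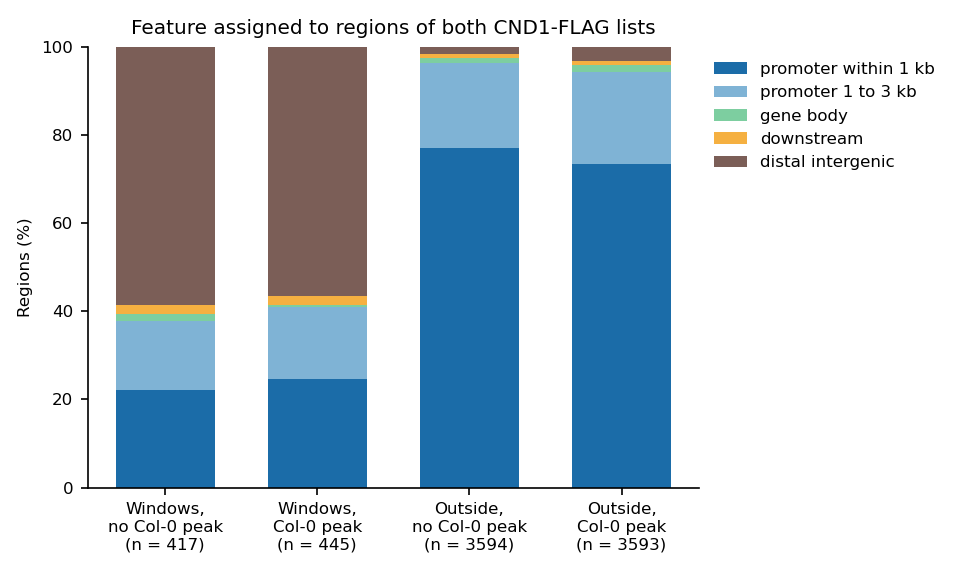
Share of regions (vertical axis, percent) by the feature the authors' annotation assigned, for regions of both CND1-FLAG lists inside the windows (2 bars at the left) and outside them (2 bars at the right), each without and with a Col-0 peak. Distal intergenic sequence makes up 58.5% and 56.4% of the regions inside the windows, and 1.67% and 3.15% outside.

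Position within the windows went with distance from genes. In the middle 50% of the windows 69.9% of regions were distal intergenic and 19.0% lay within 1 kb of a start. In the outer parts 50.2% were distal intergenic and 26.0% lay within 1 kb of a start. The bin from 13.5 Mb on chromosome 3 had 22 regions, all 22 of them distal intergenic.

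Regions inside the windows were weaker than the rest in both CND1-FLAG lists. Without a Col-0 peak the median fold was 1.83 in CND1-FLAG replicate 1 and 1.84 in replicate 2, beside 1.96 and 1.92 outside the windows. With a Col-0 peak it was 1.94 in replicate 1 and 1.91 in replicate 2, beside 2.05 and 1.98 outside, and the Col-0 folds of these window regions had a median of 1.70 in both Col-0 lists. A fold of at least 2 in both CND1-FLAG lists was found in 157 of the 862 regions (18.2%), beside 32.9% of all nuclear regions of both lists. It was found in 61 of 417 regions (14.6%) without a Col-0 peak, beside 28.9% of that class in the nuclear genome, and in 96 of 445 (21.6%) with one, beside 36.8%. The highest fold without a Col-0 peak was 3.22 in replicate 1 and 3.23 in replicate 2, and with one it was 8.39 and 8.91.

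The rank correlation between replicates was lower inside the windows than outside, while the spread between them was similar. Spearman's rho between the folds of the CND1-FLAG lists was 0.463 over the 862 regions. Outside the windows it was 0.666 without and 0.724 with a Col-0 peak. These are correlations across regions of the same pair of libraries, whose depth and antibody they share, and regions are not replicates. The SD of the log2 ratio of replicate 1 to replicate 2 was 0.18 without and 0.21 with a Col-0 peak, beside 0.19 and 0.20 in those classes outside.

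**Figure D3:**
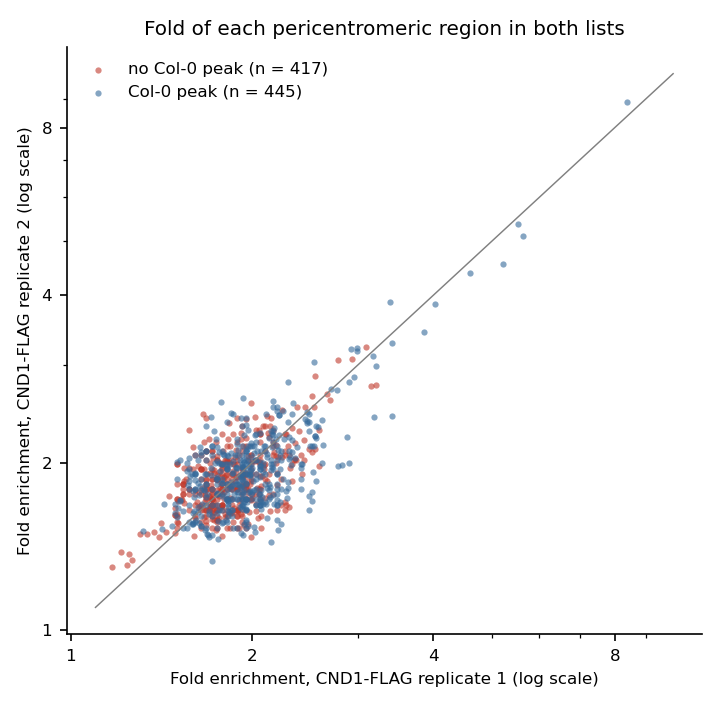
Fold enrichment of each of the 862 regions in CND1-FLAG replicate 1 (horizontal axis, log scale) and replicate 2 (vertical axis, log scale), with regions without a Col-0 peak in red and with one in blue; the line marks equal folds. The regions of highest fold, up to 8.39 and 8.91, have a Col-0 peak, and no region without one exceeds 3.23.

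Fold also depended on a background that was often at its floor. MACS2 takes the local background as the highest of several estimates, the genome average among them, so the lowest background of a list is a floor. Both CND1-FLAG lists were at this floor in 165 regions (39.6%) without and 117 (26.3%) with a Col-0 peak, beside 1.78% and 1.48% of those classes outside. Over all regions inside the windows, at the floor or not, the median pile-up was small. It was 56 fragments in replicate 1 and 52 in replicate 2 without a Col-0 peak, and 62 and 55 with one. Outside the windows it was 90 and 80 without and 92 and 82 with one. The median −log10 q was 3.8 and 3.6 without and 4.9 and 3.9 with a Col-0 peak, beside 6.8 and 5.6 without and 7.7 and 6.2 with one outside. A typical pericentromeric region therefore rested on fewer fragments than a region in the chromosome arms.

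The 12 best-ranked regions without a Col-0 peak had folds of 2.38 to 3.23, and 4 of them were distal intergenic. The first by rank, the rank being the worse of a region's ranks in the CND1-FLAG lists, was chr4:3060839-3061238, in distal intergenic sequence 6291 bp upstream of the assigned protein-coding gene AT4G06479, with folds of 3.10 and 3.23 in CND1-FLAG replicates 1 and 2. The second was chr5:11187192-11187580, downstream of AT5G29560, which resembles a peroxygenase, with 2.93 and 3.07. Both lay in stretches of high local background, described further on.

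Among the next regions, several lay at the start of a gene. AT2G05540 had a region at chr2:2033260-2034117, 106 bp from its start, with folds of 3.22 and 2.76. PSBX, which encodes the small X subunit of photosystem II, had one at chr2:2587776-2588302, 163 bp from its start, with 2.78 and 3.06. RanBPM, a homolog of Ran-binding protein M, had one over its start at chr1:13054659-13055034, with 2.53 and 2.52. SAP, the F-box protein gene STERILE APETALA that acts in flower and organ development, had one over its start at chr5:13940449-13940884, with 2.38 and 2.52. A second SAP region 3099 bp upstream had a peak in all 4 lists, with 1.92 and 1.66 in CND1-FLAG, against 1.79 and 1.91 in Col-0. In SAP the region at the start was thus in CND1-FLAG lists alone, and the upstream one was in all lists with overlapping folds.

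The others of the 12 strongest lay farther from starts. AT3G42160, a pectinesterase by similarity, had a region at chr3:14317015-14317457 with folds of 3.15 and 2.74, and XYP2, a lipid-transfer-like protein gene, had one at chr2:5774202-5774573 with 2.45 and 2.52. The long non-coding RNA gene AT4G05335 had one 1608 bp upstream, at chr4:4973515-4973922, with 2.66 and 2.66. Distal intergenic regions were assigned to AT5G35810, an ankyrin-repeat protein resembling ITN1 (chr5:13988184-13988555, 2.69 and 2.59), to AT2G13150, which resembles a bZIP factor (chr2:5468328-5468760, 2.55 and 2.86), and to AT5G35067 (chr5:13331437-13331888, 2.52 and 2.64). The assigned gene of a distal region is merely the nearest one: AT2G13150 starts 31275 bp away.

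**Figure D4:**
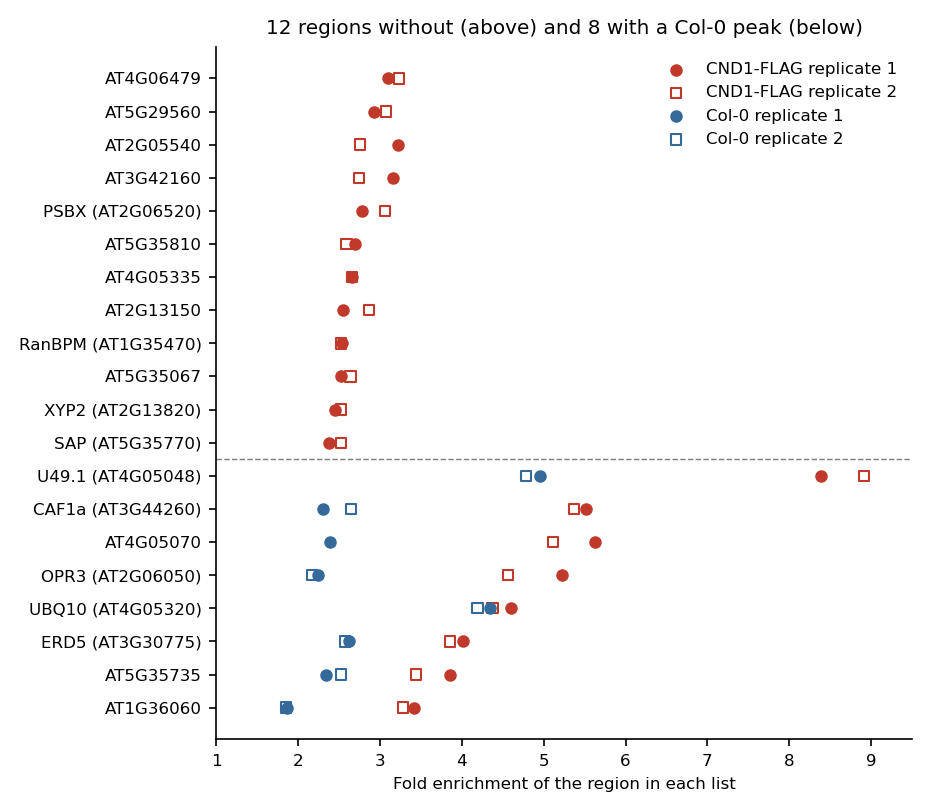
Fold enrichment (horizontal axis) of the 12 best-ranked regions without a Col-0 peak (above the dashed line) and the 8 best-ranked with one (below it), named by assigned gene, with CND1-FLAG lists in red and Col-0 lists in blue (filled circle replicate 1, open square replicate 2). The U49.1 region reaches 8.39 and 8.91 in CND1-FLAG, and the UBQ10 region has nearly the same fold in all 4 lists.

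The strongest regions with a Col-0 peak were higher in fold, and 8 of 8 of the best-ranked lay within 1 kb of a gene start. The first was chr4:2586723-2589604 at U49.1, a small nucleolar RNA gene, with 8.39 and 8.91 in CND1-FLAG, against 4.96 and 4.78 in Col-0. It is wide, 2882 bp, and the polyubiquitin gene UBQ11 is a close neighbour of U49.1 in the gene table. The polyubiquitin gene UBQ10 had a region at chr4:2718393-2720464 with 4.60 and 4.38 in CND1-FLAG, against 4.34 and 4.19 in Col-0. Polyubiquitin genes consist of near-identical repeats, so the placing of reads between them is uncertain. The UBQ10 folds in CND1-FLAG lay just above those in Col-0, whereas at U49.1 the genotypes stood well apart.

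The CAF1a, OPR3 and ERD5 regions stood apart from Col-0 in the same way as the one at U49.1. CAF1a, a deadenylase gene of the CCR4-NOT class, had a region at chr3:15952077-15953168 with 5.52 and 5.37 in CND1-FLAG, against 2.30 and 2.64 in Col-0. OPR3, whose enzyme acts in jasmonate synthesis, had one at chr2:2361513-2362121 with 5.22 and 4.56 in CND1-FLAG, against 2.25 and 2.17 in Col-0. ERD5, which encodes proline dehydrogenase, had one at chr3:12450434-12451274 with 4.02 and 3.86 in CND1-FLAG, against 2.62 and 2.57 in Col-0. In these 3 regions every CND1-FLAG fold exceeded every Col-0 fold. They were picked by their CND1-FLAG folds, which favours this order, so it is a description only. The neighbouring ERD5 region, chr3:12448845-12450063, differed, with 3.19 and 2.42 in CND1-FLAG, against 2.83 and 3.06 in Col-0, and the groups overlapped.

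The other 3 of the 8 best-ranked lay at AT4G05070, AT5G35735 and ERF055. AT4G05070 had a region at chr4:2593591-2594167 with 5.63 and 5.11 in CND1-FLAG, against 2.39 in Col-0 replicate 1 and no peak in replicate 2. AT5G35735, a cytochrome b561 and DOMON domain protein gene, had one at chr5:13902155-13903006 with 3.85 and 3.44 in CND1-FLAG, against 2.34 and 2.52 in Col-0. ERF055, a factor of the AP2/ERF family, had one at chr1:13454638-13455813 with 3.41 and 3.28 in CND1-FLAG, against 1.86 and 1.85 in Col-0.

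Over all 236 regions of all 4 lists this separation was less regular. Both CND1-FLAG folds exceeded both Col-0 folds in 134 (56.8%), beside 67.8% of such nuclear regions. In 13 (5.51%) both lay below both Col-0 folds, beside 6.60%. An example, chosen after its values were seen, was the region at RAP2.6, an AP2/ERF factor gene, with 1.63 and 1.56 in CND1-FLAG, against 2.34 and 2.43 in Col-0. The other 89 overlapped. These folds rest on different depths and inputs, so a higher fold in 1 genotype is not a measure of occupancy.

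Product words of the matched proteins were counted for 12 kinds of gene. Kinases were assigned to 6 regions without and 6 with a Col-0 peak, together 1.39% of the 862, beside 4.74% of the regions outside. Transcription factors were assigned to 6 without and 10 with a Col-0 peak, 1.86% beside 3.65%, and transporters to 4 and 9, 1.51% beside 2.35%. Over all regions, all 12 words had a smaller share inside the windows than outside, and heat shock had 0 regions inside. No match to a known protein was given for 250 of the 417 regions without and 259 of the 445 with a Col-0 peak, beside 23.2% of regions outside. Among the 353 regions inside and 5519 outside that had a protein match, 5 words had a larger share inside and 7 a smaller one. Kinases then made up 3.40% inside and 6.18% outside, and transporters 3.68% inside and 3.06% outside, so the lower shares over all regions do not hold for every word once unmatched regions are left out.

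The best-ranked regions at kinase genes lay at SOS2 and MEKK1. SOS2, the salt-tolerance kinase also called CIPK24, had a region at chr5:13632412-13633072, 1328 bp upstream of its start, with 2.99 and 3.17 in CND1-FLAG, against 1.55 and 1.65 in Col-0. MEKK1, a MAP kinase kinase kinase of the defence response, had 4 regions along the gene. The 2 nearest its start, chr4:5406073-5406491 and chr4:5406695-5407129, had no Col-0 peak, with 2.44 and 2.20 for one and 2.19 and 2.06 for the other. The region just past its far end, chr4:5402584-5403244, had 2.21 and 2.11 in CND1-FLAG, against 1.70 and 1.81 in Col-0. MEKK1 thus had regions of both classes within 5 kb.

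Some of the best-ranked regions of other product words follow, and not all of them ranked high. The CCAAT-box factor gene NF-YB7 had a region without a Col-0 peak with 2.49 and 2.12, and RPL21C, a plastid ribosomal protein gene, had one with 2.18 and 2.09. HDA7, a histone deacetylase gene, had 1.76 and 1.59, and the disease-resistance gene RPP8L3 had 1.70 and 1.92, both without a Col-0 peak. These ranked low, at 778 and 682 of the 862. The F-box gene AT2G06040 had 2.45 and 2.40 in CND1-FLAG, against 1.92 and 1.77 in Col-0. The sulfate transporter gene SULTR1;1 was the assigned gene of a distal region 14426 bp upstream with 2.06 and 2.27 in CND1-FLAG, against 1.45 in Col-0 replicate 1 and no peak in replicate 2.

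Several kinds of RNA gene, long non-coding RNA and microRNA among them, were assigned to a larger share of regions than outside, and others to a smaller one. Long non-coding RNA genes were assigned to 67 regions (16.1%) without and 63 (14.2%) with a Col-0 peak, beside 5.34% outside. MicroRNA genes were assigned to 14 (3.36%) without and 15 (3.37%) with a Col-0 peak, beside 0.334% outside. Small nucleolar, other non-coding and ribosomal RNA genes took 0.812%, 1.74% and 0.464% of the 862, beside 0.181%, 0.473% and 0.0278% outside. Transfer RNA genes were assigned to 3 regions without and 3 with a Col-0 peak, 0.696% of the 862 beside 1.25% outside, and small nuclear and antisense RNA genes to 0, beside 0.209% and 0.181%. Many of these regions share a gene: the 29 regions belonged to 14 microRNA genes. The long non-coding RNA gene with the most, AT3G06315, was assigned 11 distal regions, 5 without and 6 with a Col-0 peak, spread from 13750617 to 13893776 on chromosome 3. The strongest at such a gene, at AT2G05812, had 3.21 and 2.99 in CND1-FLAG, against no peak in Col-0 replicate 1 and 1.46 in replicate 2.

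Regions assigned to MIR854 genes formed the largest microRNA group, chosen as a group after their values were seen. MIR854 genes derive from Athila retrotransposons, repeats of the Arabidopsis pericentromeres. Whether the regions hold such sequence was not analysed. MIR854a, MIR854b, MIR854c and MIR854e on chromosome 5 were the assigned genes of 14 regions. Of these, 8 were distal intergenic, and 1 assigned to MIR854e lay 45055 bp from its start. A Col-0 peak was absent in 4 of the 14 and present in 10, and 8 of the 10 had one in both Col-0 lists. The median folds of the 14 were 1.97 and 2.01 in CND1-FLAG, against 1.75 and 1.82 in Col-0 where called. The region chr5:11843442-11844076, 3800 bp from MIR854a, had 2.19 and 2.21 in CND1-FLAG, against 2.24 and 2.18 in Col-0, and the genotypes overlapped. MIR401 on chromosome 4 was the assigned gene of 4 regions, all 4 without a Col-0 peak, at folds of 1.75 to 1.92 in replicate 1 and 1.57 to 2.33 in replicate 2. All 4 MIR401 regions stood at the background floor in replicate 1.

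Regions often lay close together. Of the 862, 622 lay within 10 kb of another and 170 within 1 kb, and the median gap to the next was 4287 bp. The same counts were not made for regions outside the windows, so closeness is not shown to be particular to the windows. They were assigned to 479 genes, of which 303 had 1 region and 176 had more, up to 11. Regions without a Col-0 peak alone were found at 161 genes, regions with a Col-0 peak alone at 202 and both at 116. Of the 417 regions without a Col-0 peak, 257 had a Col-0 peak within 5 kb and 38 within 500 bp, the nearest 19 bp away. The median gap to a Col-0 peak was 3604 bp, beside 4679 bp for regions without a Col-0 peak outside the windows. When a Col-0 peak within 500 bp counted as present, 44.0% of the regions had none.

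A small group had very high local background, and most of it lacked a Col-0 peak. The thresholds here were chosen after the values were seen. If both CND1-FLAG lists shared the 1 CND1-FLAG input as control, their backgrounds were not independent. A local background of at least 3 times the list's floor in both CND1-FLAG lists was found in 35 regions in 12 clusters, 22 without (5.28%) and 13 with a Col-0 peak (2.92%), beside 1.82% and 0.421% of those classes in the nuclear genome. At 5 times or more there were 24, 21 without and 3 with a Col-0 peak, beside 1.75% and 0.0743% of those classes in the nuclear genome, and at 10 times or more 14, all 14 of them without a Col-0 peak. The median fold of the 35 was 1.64 in replicate 1 and 1.67 in replicate 2, and 7 of them reached 2 in both lists. The median of the 14 was 1.36 in replicate 1. In 10 of the 35 the replicate 1 pile-up reached at least 90% of 2 times the smallest peak width, 652 fragments, taken as the limit where 1 fragment is kept per position and strand. In such a region fold can rise no further once the limit is met. Of the 73 such regions at 3 times or more without a Col-0 peak in the nuclear genome, 22 lay in the windows and 42 in the stretch of chromosome 2 left out of its window. Without that stretch, 9 of 3552 regions outside the windows (0.253%) without a Col-0 peak had such a background. The part of background height in the missing Col-0 peaks was not tested.

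**Figure D5:**
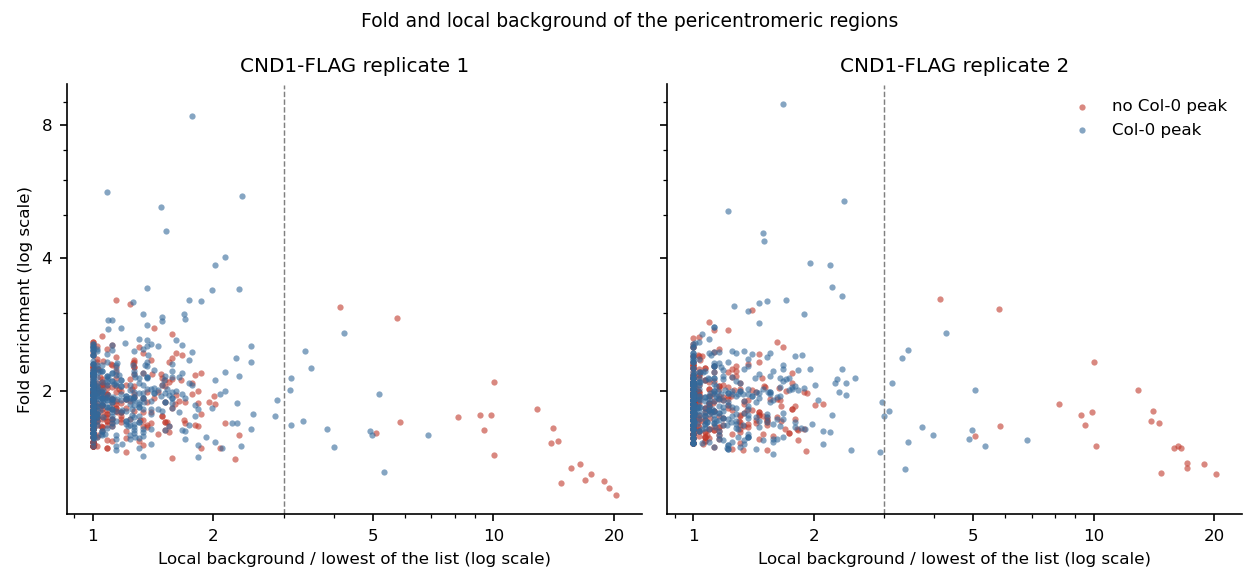
Fold enrichment (vertical axis, log scale) against local background divided by the lowest of its list (horizontal axis, log scale) for the 862 regions, CND1-FLAG replicate 1 at the left and replicate 2 at the right, without a Col-0 peak in red and with one in blue. To the right of the dashed line at 3 the regions thin out, and all 14 at 10 or more have no Col-0 peak and reach down to a fold of 1.17 in replicate 1.

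The largest of these clusters held ribosomal RNA genes. It spanned chr3:14190474-14213012 with 9 regions, all 9 without a Col-0 peak, at 8.18 to 18.8 times the floor in both CND1-FLAG lists. The genes assigned there included the ribosomal RNA genes AT3G41768 and AT3G41979, which the gene table lists as rRNA. Ribosomal RNA genes occur in many near-identical copies, so reads cannot be placed on 1 copy with certainty. The region in AT3G41768, chr3:14197944-14198380, had 1.82 and 2.01 on pile-ups of 647 and 652 fragments. The region chr3:14195282-14197608, with the highest local background of the cluster, had 1.25 and 1.37 on 651 and 650 fragments. Folds spanned 1.25 to 1.82 in replicate 1 and 1.37 to 2.01 in replicate 2.

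The other clusters were smaller and mixed. On chromosome 3 the regions chr3:13590198-13590853 and chr3:13591297-13592431, assigned to AT3G32980 from over 60 kb away, had backgrounds of 20.2 and 19.5 times the floor in replicate 1 and folds of 1.17 and 1.21. Another 4 regions of the same assigned gene, between 13705735 and 13713306, had 3 without and 1 with a Col-0 peak, and folds up to 2.33 in replicate 2. On chromosome 5 the 4 regions between 11184693 and 11188721, at AT5G29560, had no Col-0 peak, with backgrounds of 5.73 to 17.5 times the floor in replicate 1. The strongest of them is the region with 2.93 and 3.07 given above, on 465 and 450 fragments. On chromosome 4 the 3 regions between 3054381 and 3061238, at AT4G06479, ranged from a fold of 1.26 at a background of 16.9 times the floor to 3.10 at 4.14 times. Regions of high and of low rank thus lay within the same 6.86 kb.

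Clusters with a Col-0 peak were nearer the threshold. The 4 regions at AT1G43730, between 16512997 and 16520297 on chromosome 1, had backgrounds of 3.10 to 3.84 times the floor in replicate 1, and all 4 had a Col-0 peak. The region over MIR854b, chr5:11323799-11324776, stood at 5.17 and 5.06 times the floor, with 1.97 and 2.02 in CND1-FLAG, against 1.57 and 1.62 in Col-0. The backgrounds of the CND1-FLAG lists, relative to their floors, agreed within 10% in 88.4% of the 862 regions. With only 1 CND1-FLAG input library, both lists may share a control. This agreement is therefore no measure of how well the replicates agreed.

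The window edges were placed at round positions and cut through no region. Just inside the chromosome 1 window, the region at 13000013 had 2.18 and 2.31 in CND1-FLAG, against 1.65 and 1.75 in Col-0, and the nearest outside, at 12957840, had 2.13 and 1.87 in CND1-FLAG and no Col-0 peak. At the end of the chromosome 4 window, the last region inside had 1.83 and 1.71 in CND1-FLAG, against 1.71 in Col-0 replicate 1 and no peak in replicate 2. The next outside, 0.411 kb past the edge at SULTR1;1, had 2.13 and 2.29 in CND1-FLAG, against 1.93 and 1.87 in Col-0. At the start of the chromosome 3 window, the region just inside had 2.27 and 1.70 and the nearest outside 2.72 and 2.16, both without a Col-0 peak.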

How the data were processed

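The submitters' processing notes name fastp 0.19.11, BWA 0.7.12, MACS2 2.1.0 and the TAIR10 build; which input and threshold went into a list is not given in the sources used. Per the file headers, 1 deposited column holds a ratio, the fold of pile-up over local background at the summit. The deposited p-value and q-value columns are −log10 values, the smallest −log10 q being 1.30 in each list. The deposited score is an integer, and the other deposited columns are positions and distances in bp on TAIR10, counted from 1.

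Groups follow the genotype label. Summits of 1 peak were joined, with the highest fold and −log10 q kept, and peaks of different lists were merged from 1 bp of overlap. A region took the highest value of each list and the feature and gene of its strongest CND1-FLAG peak. Gene kinds came from the TAIR10.1 gene table by locus identifier, which matched all 479 assigned genes. Values per library were compared by exact permutation (two-sided, on the difference of means). Pile-up and background were solved from fold and p, which gave whole pile-ups (within 0.002 on the −log10 p scale) for 99.99% of summits in each CND1-FLAG list and for 99.8% and 97.3% in Col-0 replicates 1 and 2, after scale factors of 0.723 and 0.739. Depth therefore carries no counting interval, and library totals were not used. The merging and the solving were tested on simulated data.

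The members, lists, tests and alternatives were chosen with earlier results of these data known. Named are the 12 best-ranked regions without and 8 with a Col-0 peak, the best of each window and class, those nearest window edges, and up to 3 of each gene kind or product word; a region's rank by fold is its worse one of both CND1-FLAG lists. The second regions of SAP, ERD5 and MEKK1, RAP2.6, UBQ11, the microRNA groups and the clusters of high background are not named by this rule: they were picked with their values in view. Sequence motifs were planned but not analysed here. Computations used Python 3.11.15, numpy 2.4.6, pandas 2.3.3 and scipy 1.17.1.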

Additional observations from a re-analysis of the deposited data

Results flagged for a closer look

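The stretch of chromosome 2 from 3200 to 3550 kb, left out of the windows and counted above among the regions outside, held 44 regions of both CND1-FLAG lists, of which 42 had no Col-0 peak and 2 had one. It held 53 and 58 peaks in CND1-FLAG replicates 1 and 2, against 4 and 2 in Col-0 replicates 1 and 2. The local background of its CND1-FLAG regions had a median of 10.9 times the floor in both lists, and their median fold was 1.69 in replicate 1 and 1.76 in replicate 2. All 42 had a local background of at least 5 times the floor in both CND1-FLAG lists. It drew attention because it lies outside the regions described and held more CND1-FLAG than Col-0 peaks. Col-0 values where no peak was called were not analysed here. Groups of 2 libraries are too small for a search for samples that stand apart.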

How the results depend on the processing

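Replicate numbers are the labels' own, and folds of same-numbered libraries did not deviate together (correlation −0.0238 over 2426 regions of all 4 lists). With the replicate number as a block, the difference in window peaks was 782.5 (exact p = 0.5, the smallest that 2 pairs allow) and that in percent 0.0835 (exact p = 1), so no call changed. With −log10 q of at least 5 there were 193 regions, 118 without a Col-0 peak (61.1%), with promoter shares of 44.1% and 37.3% and distal shares of 31.4% and 40.0% without and with a Col-0 peak, and the difference in percent of nuclear peaks reversed to −1.54. The top 50% of each list gave 171 regions, 90 without a Col-0 peak (52.6%), promoter shares of 44.4% and 39.5%, distal shares of 32.2% and 38.3%, and −3.49. Lists of equal length gave 160 regions, 59 without a Col-0 peak (36.9%), promoter shares of 52.5% and 36.6%, distal shares of 27.1% and 41.6%, and differences of −406.5 peaks and −7.03 percentage points. A Col-0 peak within 500 bp left 44.0% without one. The middle 50% of each window gave 316 regions, 166 without a Col-0 peak (52.5%), a promoter share with a Col-0 peak of 18.0%, and distal shares of 66.9% and 73.3%. Keeping the chromosome 2 stretch gave a distal share of 53.6% without a Col-0 peak. In an alternative added after the data were seen, leaving this stretch out of the regions outside the windows lowered their share of high local background without a Col-0 peak to 0.253%, against 1.42% with it. Leaving out 1 library at a time gave 860 to 1851 regions, 492 to 1169 without a Col-0 peak (57.0% to 64.8%), promoter shares of 14.4% to 22.0% without and 21.8% to 26.1% with a Col-0 peak, distal shares of 59.3% to 68.4% and 52.8% to 59.5%, and differences of 477.5 to 1087.5 peaks and −1.09 to 1.26 percentage points. The percentage was reversed without CND1-FLAG replicate 1 (−1.09) and without Col-0 replicate 2 (−0.389). The 1851 regions, 1169 of them without a Col-0 peak, arose without CND1-FLAG replicate 2, where 1 list alone decides, and 734 without a Col-0 peak arose without CND1-FLAG replicate 1. Apart from smaller lists or fewer libraries by construction, the cause of these shifts was not tested. The median pile-up in CND1-FLAG replicates 1 and 2 was 56 and 52 fragments without a Col-0 peak, and 62 and 55 with one. The part of depth was not tested.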
